A study of Homo sapiens with 9 samples.

Results

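The 10 genes described here add, remove or read ubiquitin chains at the TNF receptor, and they were followed across 3 groups of cells. They were taken by symbol: TNFAIP3 (which encodes A20), CYLD and OTULIN as deubiquitinases, TNIP1, TNIP2, TAX1BP1 and N4BP1 as A20 partners and adaptors, and RNF31, RBCK1 and SHARPIN as the linear ubiquitin assembly complex. All 10 were found once each among the 58735 genes of the deposited table, and all 10 had enough reads to be tested, as did 18195 genes in all. The cells were HEK293A, an adherent line derived from HEK293 human embryonic kidney cells, and every library came from cells labelled as knocked out for p65. They were transfected with empty vector, with wild-type p65 (p65 WT) or with a form labelled p65 2CS, an abbreviation that the labels leave unexplained, and after 24 h all of them received TNF at 20 ng/mL for 2 h. Each group had 3 libraries (replicates 1 to 3, 4 to 6 and 7 to 9), and no library lacked TNF, so TNF itself was not compared. The series set out to learn how palmitoylation of p65 bears on gene expression.

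TNF makes its receptor gather adaptors and kinases that are then tagged with ubiquitin chains, and these chains recruit the kinases that release NF-kB into the nucleus. The linear ubiquitin assembly complex builds head-to-tail chains in that assembly, whereas A20, CYLD and OTULIN take chains apart or block them. TNFAIP3 is a textbook NF-kB target, so that the pathway raises its own brake.

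Sequences around RefSeq transcription starts of the genes are shown first. The 3 genes that moved most share a pattern there, and whether it bears on their change was not tested. RefSeq promoter windows on GRCh38.p14, from 250 bases before to 50 bases after each transcription start, were matched by symbol for 9 members in 14 windows. SHARPIN was left out of the searches that follow and is not shown. The NF-kB binding consensus known as the kappa B motif was searched on both strands, and 3 members held a match: TNFAIP3, TNIP1 and CYLD. The other 6 members searched held none. These were 4 of the 14 windows. Of all 35116 RefSeq windows of this length 11.3% held a match, and of their 27305 genes 13.3% did. One 10-letter form of it, GGGACTTTCC, occurred in 1 window each of TNFAIP3, TNIP1 and CYLD, on the reverse strand for TNFAIP3 and CYLD, and in 0.191% of all windows. That form was singled out after the first search. The printed stretches end before the gene start of the GENCODE 29 annotation or at the last match. Capitals mark the matches, read 5′ to 3′ on the strand of the gene. OTULIN is shown as a deubiquitinase gene without a match.
TNFAIP3, plus strand, chr6:137867009-137867213: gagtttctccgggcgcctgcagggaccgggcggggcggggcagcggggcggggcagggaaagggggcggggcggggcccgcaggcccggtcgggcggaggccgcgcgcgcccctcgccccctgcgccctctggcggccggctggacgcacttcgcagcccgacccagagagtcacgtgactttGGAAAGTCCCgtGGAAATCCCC
TNIP1, minus strand, chr5:151081067-151081284: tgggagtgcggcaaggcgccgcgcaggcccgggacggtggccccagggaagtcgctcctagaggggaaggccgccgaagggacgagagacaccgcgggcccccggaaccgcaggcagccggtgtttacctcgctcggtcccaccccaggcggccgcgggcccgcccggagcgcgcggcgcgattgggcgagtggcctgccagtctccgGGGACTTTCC
CYLD, plus strand, chr16:50741836-50742049: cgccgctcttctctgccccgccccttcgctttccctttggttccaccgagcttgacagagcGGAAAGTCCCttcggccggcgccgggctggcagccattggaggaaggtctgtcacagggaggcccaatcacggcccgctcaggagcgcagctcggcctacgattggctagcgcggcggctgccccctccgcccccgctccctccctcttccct
OTULIN, plus strand, chr5:14664468-14664663: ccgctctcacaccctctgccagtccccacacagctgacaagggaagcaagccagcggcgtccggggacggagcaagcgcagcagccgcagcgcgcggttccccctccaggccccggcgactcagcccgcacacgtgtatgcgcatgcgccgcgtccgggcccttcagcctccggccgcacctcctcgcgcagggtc

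In TNFAIP3 the matches lay side by side, from 67 to 58 and from 55 to 46 bases before the RefSeq start. By GENCODE 29 they begin 4 and 16 bases into the gene, in an exon and outside the coding sequence. The TNIP1 match lay 42 to 33 bases before a RefSeq start that is inside the TNIP1 gene span. By GENCODE 29 that match begins 12501 bases into the gene, in an exon and outside the coding sequence. In CYLD the match was 189 to 180 bases before one of 3 RefSeq starts and outside the GENCODE gene, and another form of the consensus began at the first base of the most downstream start. A 5-letter part of the motif, TTTCC, was found on either strand in at least 1 window of all 9 members. Over all RefSeq windows it was found for 65.9% of genes and in 61.2% of windows. It overlaps the 10-letter form. These matches describe letters in a window and say nothing of binding, which was not measured here.

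**Figure D1:**
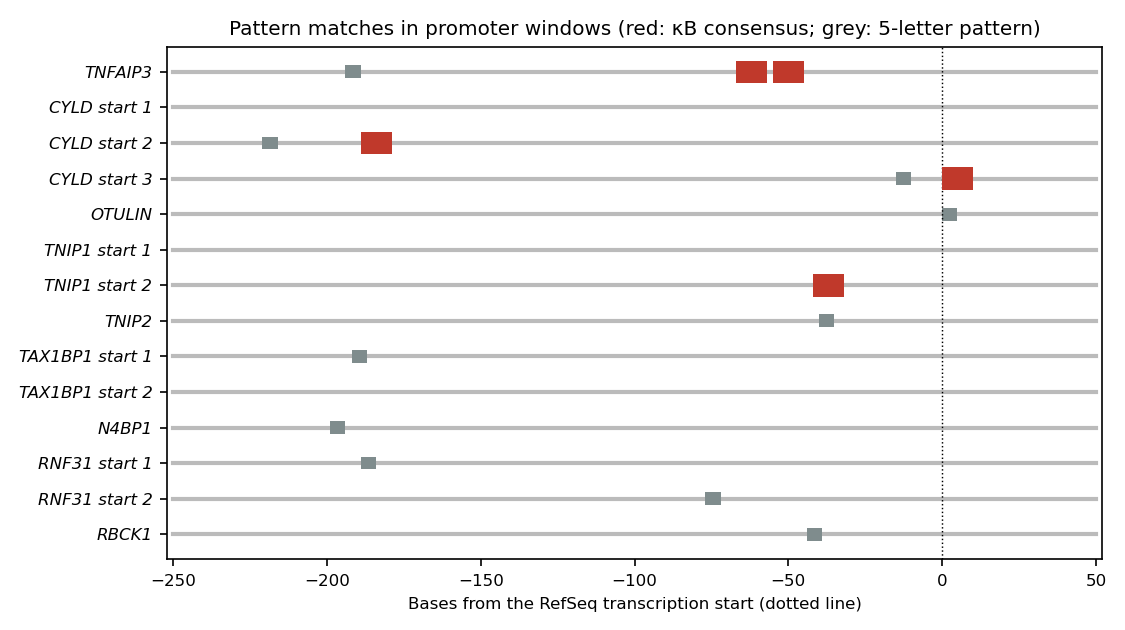
Positions of pattern matches in the 14 RefSeq promoter windows of 9 genes, with distance in bases from the transcription start on the x axis and a line per window. Red blocks are matches to the kappa B consensus and grey blocks the 5-letter pattern TTTCC where it lies outside a red block; red blocks are seen in windows of TNFAIP3, CYLD and TNIP1.

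The depth and the label check were as follows. Library totals ran from 17923114 to 20162267 counts for vector, from 15989601 to 16507689 for p65 WT and from 17146134 to 25068515 for p65 2CS. The level of RELA, the gene of p65, is given in CPM, which are counts scaled by library size. It was 65.9 to 69.0 CPM under vector, 8037 to 9922 CPM under p65 WT and 24036 to 26771 CPM under p65 2CS. Its transcript was 2.83-fold more abundant with p65 2CS than with p65 WT, and counts cannot separate plasmid RNA from the locus. Markers of HEK293 cells were a list of 10 kidney, neural, keratin and vimentin genes. Of these, 9 had a mean of at least 1 CPM under vector and under p65 2CS, and 10 under p65 WT. Their summed level was 2548 to 2577 CPM under vector, 2420 to 2494 CPM under p65 WT and 2223 to 2289 CPM under p65 2CS. That sum mostly follows abundant genes. Under vector KRT8 and NEFL averaged 942 and 899 CPM, but PAX2, LHX1 and EYA1 1.91, 7.64 and 5.57 CPM. The leukocyte markers PTPRC and CD3E had no read with vector, nor PTPRC with p65 WT, and the summed level of 6 leukocyte markers was 3.79 to 4.03 CPM (vector), 4.94 to 5.87 CPM (p65 WT) and 5.11 to 5.41 CPM (p65 2CS). For 6 endothelial and fibroblast markers it was 78.8 to 86.5, 119 to 121 and 79.5 to 83.5 CPM. VWF averaged 7.22, 25.1 and 9.40 CPM (vector, p65 WT and p65 2CS), and CDH5 0.10, 10.5 and 2.38 CPM. COL1A1 averaged 49.1, 56.4 and 49.3 CPM, and COL3A1 26.4, 27.3 and 20.6 CPM. PECAM1 averaged 0.12, 0.06 and 0.01 CPM, and DCN had no read except with p65 WT, at 0.48 CPM. The part of these markers in the results was not tested. The labels do not state whether the libraries of a group were separate cultures, and p-values otherwise measure the spread between libraries only.

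With p65 WT in place of vector, TNFAIP3, CYLD, TNIP1 and, by a small margin, OTULIN rose, and no member passed the test as lower. Of the 10 members 4 were higher and 0 lower at an adjusted p under 0.05, where 16.4% of all genes tested were higher and 12.5% lower, 28.8% in all. When library totals alone set the scale, 4 were higher and 2 lower. The median log2 fold of the members was 0.06, against -0.02 over all genes tested. With p65 2CS in place of vector 3 members were higher (TNFAIP3, CYLD and TNIP1) and 0 lower, where 12.1% of all genes were higher and 11.4% lower, 23.4% in all. The members' median log2 fold was 0.05, against 0.00 over all genes. Between the forms, 4 members were lower with p65 2CS than with p65 WT (TNFAIP3, CYLD, TNIP1 and OTULIN) and 1 was higher (RBCK1), where 17.9% of all genes were lower and 13.4% higher, 31.2% in all. When library totals alone set the scale, 3 were lower and 4 higher. That median was -0.11, against 0.00 over all genes. Both comparisons with vector share its libraries. The text gives log2 folds ± standard error from edgeR's quasi-likelihood test, with Benjamini-Hochberg adjustment over all 18195 genes.

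TNFAIP3 (ENSG00000118503, chromosome 6, 137867188 to 137883312, plus strand of GRCh38) encodes A20, which trims ubiquitin chains and adds others through its zinc fingers. Cells with vector had 7.36, 7.54 and 6.02 CPM, those with p65 WT 222, 214 and 214 CPM, and those with p65 2CS 49.99, 51.2 and 44.7 CPM. The 3 groups did not overlap, and p65 2CS stood between the others. Against vector, p65 WT raised it by 4.95 ± 0.06 on the log2 scale, or 30.9-fold (edgeR adjusted p = 1.11e-41). The rise with p65 2CS was 2.80 ± 0.07, or 6.96-fold (edgeR adjusted p = 1.94e-29). Between the forms the log2 fold was -2.15 ± 0.04, which is 4.45-fold lower with p65 2CS (edgeR adjusted p = 1.76e-33). Ranked from the highest log2 fold, TNFAIP3 was number 260 of 18195 genes with p65 WT and number 138 with p65 2CS. In bulk RNA, fewer responding cells and less RNA per cell cannot be told apart.

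An antisense gene, AL357060.1, overlaps TNFAIP3 by 1046 bases and also rose with both forms. Its counts were 7 to 10 under vector, 107 to 153 under p65 WT and 26 to 48 under p65 2CS. The log2 fold was 4.16 with p65 WT (edgeR adjusted p = 1.56e-17) and 1.83 with p65 2CS (edgeR adjusted p = 1.31e-05). The strand setting of the counting is not given in the sources used here, so reads of this pair cannot be told apart. TNFAIP3 itself had 3383 to 3518 counts with p65 WT, far more than its partner.

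CYLD (ENSG00000083799, chromosome 16, 50742050 to 50801935, plus strand) encodes a deubiquitinase that cuts linear and lysine-linked chains and is lost in familial skin tumours. It was at 45.2, 42.9 and 46.0 CPM with vector, at 115, 99.8 and 111 CPM with p65 WT and at 58.6, 56.6 and 53.6 CPM with p65 2CS. Again no group overlapped another, but the p65 2CS libraries lay close to vector. CYLD rose by 1.28 ± 0.05 on the log2 scale with p65 WT (2.43-fold, edgeR adjusted p = 1.15e-23) and by 0.33 ± 0.05 with p65 2CS (1.26-fold, edgeR adjusted p = 6.25e-06). Between the forms it was 1.93-fold lower with p65 2CS (edgeR adjusted p = 1.81e-19). The 3 genes that overlap CYLD, 2 of them antisense, had at most 9 counts in any library.

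OTULIN (ENSG00000154124, chromosome 5, 14664664 to 14699711, plus strand) encodes the deubiquitinase that cuts linear chains and no others. Its level was 85.4, 79.0 and 80.8 CPM with vector, 94.8, 88.4 and 90.8 CPM with p65 WT and 83.2, 84.9 and 83.0 CPM with p65 2CS. The p65 WT libraries were all above the others, by a narrow gap. The rise with p65 WT was 11.8%, a log2 fold of 0.16 ± 0.04 (edgeR adjusted p = 0.00287). With p65 2CS the log2 fold was 0.04 ± 0.04 and did not pass (edgeR adjusted p = 0.599, 95% interval -0.05 to 0.12). The difference between the forms, -0.13 ± 0.04 (edgeR adjusted p = 0.0193), was lost without p65 WT replicate 4 (adjusted p = 0.119) or p65 2CS replicate 7 (0.054) or 9 (0.0617). It was also lost when library totals alone set the scale (adjusted p = 0.0724).

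**Figure D2:**
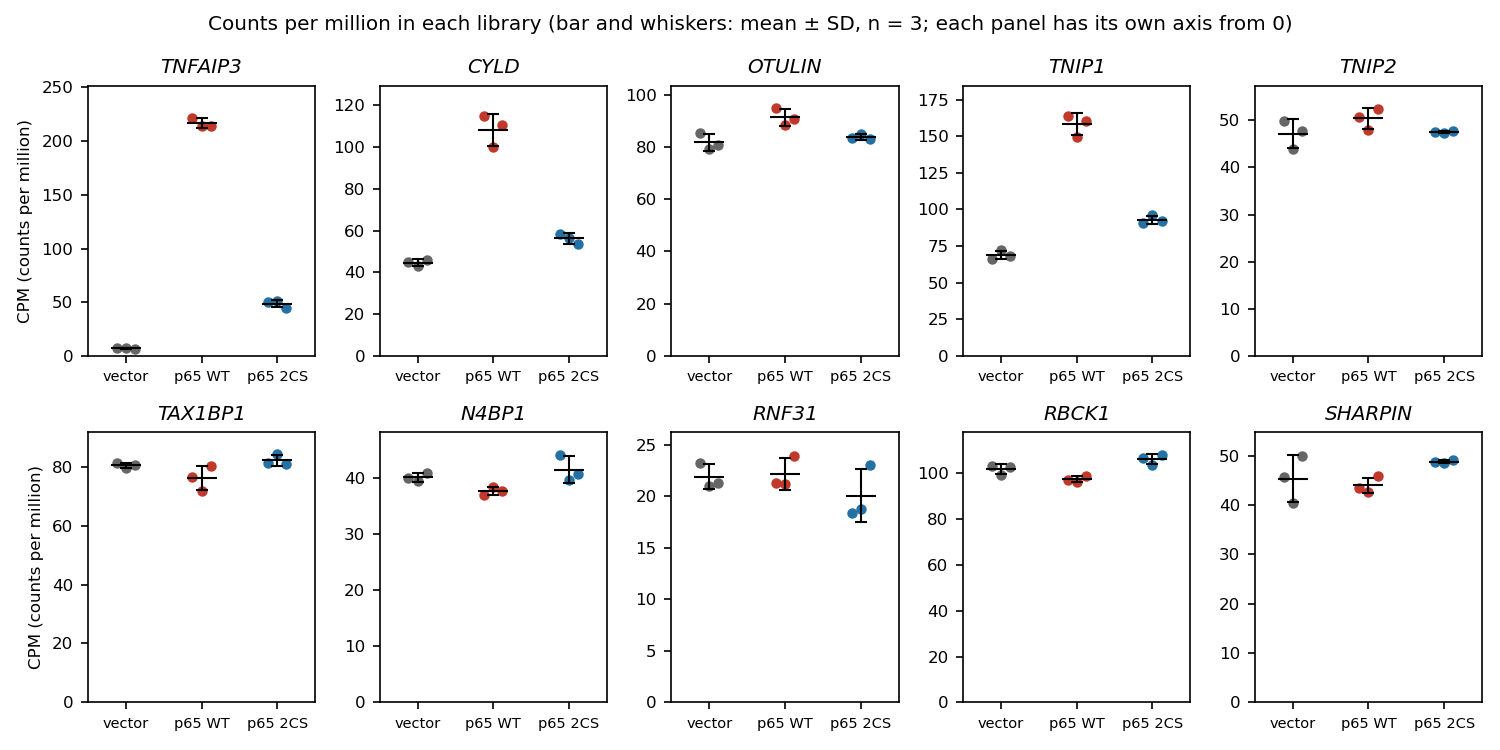
CPM of the 10 genes in every library (points), with mean ± SD over 3 libraries (bars), by group on the x axis; each panel has its own y axis from 0. TNFAIP3, CYLD and TNIP1 separate the 3 groups without overlap, with p65 WT highest and vector lowest.

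Among the A20 partners and adaptors TNIP1 was the 1 of 4 that rose. TNIP1 (ENSG00000145901, chromosome 5, 151029945 to 151093577, minus strand) encodes ABIN-1, which binds ubiquitin chains and brings A20 to its targets. Its level was 66.3, 72.1 and 68.2 CPM with vector, 164, 150 and 161 CPM with p65 WT and 90.8, 96.1 and 92.3 CPM with p65 2CS. No group overlapped another. The log2 fold was 1.20 ± 0.04 with p65 WT (2.29-fold, edgeR adjusted p = 8.26e-26) and 0.44 ± 0.04 with p65 2CS (1.35-fold, edgeR adjusted p = 1.48e-10). Between the forms TNIP1 was 1.70-fold lower with p65 2CS (edgeR adjusted p = 2.18e-19).

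TNIP2 (ENSG00000168884, chromosome 4, 2741648 to 2756376, minus strand) encodes ABIN-2, a relative of ABIN-1 that also steadies the kinase TPL2. It was at 49.8, 43.9 and 47.8 CPM with vector, at 50.8, 48.0 and 52.4 CPM with p65 WT and at 47.4, 47.3 and 47.7 CPM with p65 2CS. The p65 WT and vector libraries overlapped, and TNIP2 passed the test in none of the 3 comparisons. Its log2 fold with p65 WT was 0.10 ± 0.06 (edgeR adjusted p = 0.209), with a 95% interval of -0.02 to 0.21 that lies wholly below the change of TNIP1.

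TAX1BP1 (ENSG00000106052, chromosome 7, 27739331 to 27844564, plus strand) encodes an adaptor that links A20 to its substrates and serves as an autophagy receptor. Its level was 81.1, 79.5 and 80.6 CPM with vector, 76.4, 71.8 and 80.1 CPM with p65 WT and 81.1, 84.2 and 81.0 CPM with p65 2CS. The p65 WT libraries were the lowest, but their top value reached into the vector range. The log2 fold was -0.08 ± 0.04 with p65 WT (edgeR adjusted p = 0.194) and 0.03 ± 0.04 with p65 2CS (edgeR adjusted p = 0.651). Between the forms it was 0.11 ± 0.04 (edgeR adjusted p = 0.0502), which passed without p65 WT replicate 6 (adjusted p = 0.0144) and when library totals alone set the scale (0.0119). JAZF1, whose span overlaps TAX1BP1 by 13992 bases on the other strand, had 104 to 133 counts with p65 WT against 190 to 203 with vector (log2 fold -0.42, edgeR adjusted p = 0.00671).

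N4BP1 (ENSG00000102921, chromosome 16, 48538726 to 48620148, minus strand) encodes a ubiquitin-binding protein that restrains NF-kB signalling and cleaves RNA. Its level was 40.0, 39.4 and 41.0 CPM with vector, 37.0, 38.5 and 37.6 CPM with p65 WT and 44.2, 39.6 and 40.6 CPM with p65 2CS. The p65 WT libraries lay just under the others, a gap that did not pass the test against vector (log2 fold -0.09 ± 0.06, edgeR adjusted p = 0.287) or between the forms (0.13 ± 0.06, edgeR adjusted p = 0.0839). Against vector p65 2CS gave 0.04 ± 0.06 (edgeR adjusted p = 0.645).

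None of the 3 genes of the linear ubiquitin assembly complex passed the test against vector with either form of p65. RNF31 (ENSG00000092098, chromosome 14, 24146683 to 24160661, plus strand) encodes HOIP, the catalytic ligase of the complex. It was at 23.3, 21.0 and 21.3 CPM with vector, at 21.3, 21.2 and 23.9 CPM with p65 WT and at 18.4, 18.7 and 23.0 CPM with p65 2CS. All groups overlapped. The log2 fold was 0.02 ± 0.08 with p65 WT (edgeR adjusted p = 0.907, 95% interval -0.15 to 0.19) and -0.13 ± 0.08 with p65 2CS (edgeR adjusted p = 0.287). The p65 2CS value rests on replicate 9, without which RNF31 was lower against vector (-0.24, edgeR adjusted p = 0.0457) and against p65 WT (-0.25, edgeR adjusted p = 0.0277). PSME2, a proteasome activator gene that overlaps RNF31 by 888 bases on the other strand, rose by 0.78 with p65 WT (edgeR adjusted p = 5.24e-14), and without a known strand setting reads from that overlap cannot be told apart.

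RBCK1 (ENSG00000125826, chromosome 20, 407498 to 430966, plus strand) encodes HOIL-1, an accessory subunit and ligase. Its level was 103, 99.2 and 103 CPM with vector, 97.3, 96.4 and 98.7 CPM with p65 WT and 107, 104 and 108 CPM with p65 2CS. The groups were ordered without overlap, p65 WT lowest and p65 2CS highest. Neither step from vector passed the test (log2 fold -0.06 ± 0.04, edgeR adjusted p = 0.246, and 0.06 ± 0.04, edgeR adjusted p = 0.249). The difference between the forms did, by 0.12 ± 0.04, or 8.89% higher with p65 2CS (edgeR adjusted p = 0.0107).

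SHARPIN (ENSG00000179526, chromosome 8) encodes the other accessory subunit. It was at 45.8, 40.4 and 49.97 CPM with vector, at 43.4, 42.8 and 45.8 CPM with p65 WT and at 48.8, 48.5 and 49.2 CPM with p65 2CS. The vector libraries spread over the range of both other groups. The log2 fold was -0.04 ± 0.06 with p65 WT (edgeR adjusted p = 0.671), 0.11 ± 0.06 with p65 2CS (edgeR adjusted p = 0.203) and 0.15 ± 0.06 between the forms (edgeR adjusted p = 0.0582). It passed against vector without vector replicate 3 (0.18, adjusted p = 0.0388), and between the forms without vector replicate 2 (adjusted p = 0.0389), vector replicate 3 (0.0422) or p65 WT replicate 6 (0.0447). Between the forms it also passed when only those groups were fitted (edgeR adjusted p = 0.0379) and when library totals alone set the scale (edgeR adjusted p = 0.0213). MAF1 and WDR97 overlap SHARPIN on the other strand, and MAF1 had 2116 to 3443 counts per library, against 675 to 1220 for SHARPIN.

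**Figure D3:**
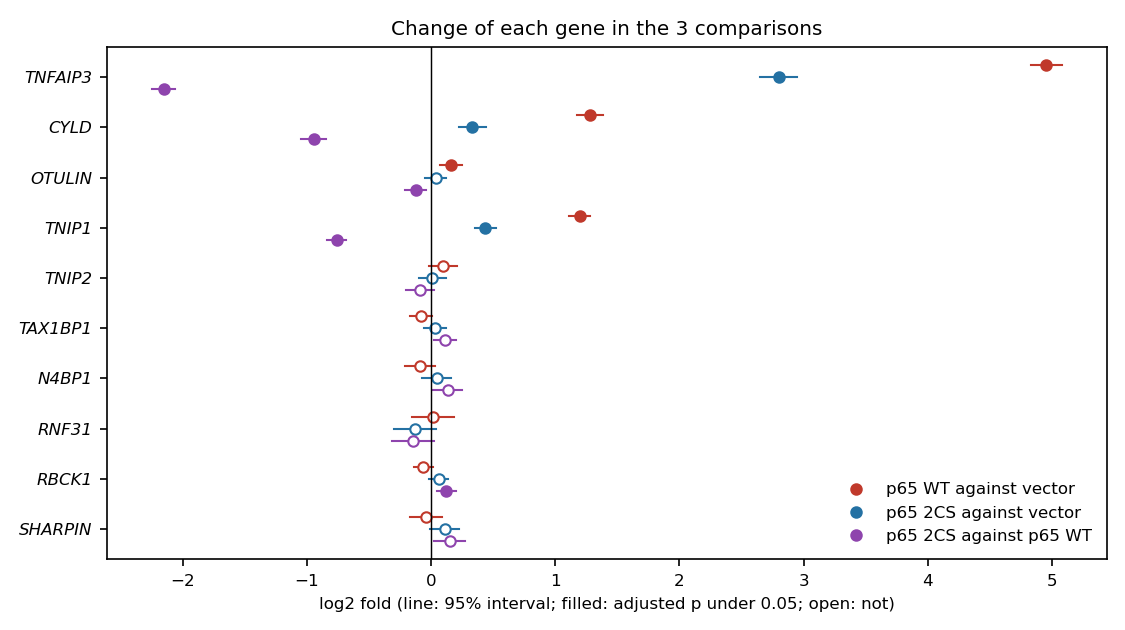
Log2 fold of each gene (x axis) with its 95% interval from the edgeR fit, in 3 comparisons by colour; filled points have an adjusted p under 0.05. TNFAIP3, CYLD and TNIP1 stand apart from 0 in all 3 comparisons, while the other 7 genes lie close to 0, OTULIN with p65 WT being the farthest at 0.16.

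Counting libraries rather than tests, 4 members were higher in every p65 WT library than in every vector library (TNFAIP3, CYLD, OTULIN and TNIP1) and 2 were lower (N4BP1 and RBCK1). Over all genes tested these shares were 20.3% and 20.1%, or 40.5% together. With p65 2CS against vector 4 members were higher without overlap (TNFAIP3, CYLD, TNIP1 and RBCK1) and 0 lower, where 18.5% and 18.1% of all genes were, 36.6% together. Between the forms 4 were higher with p65 2CS (N4BP1, RBCK1, SHARPIN and TAX1BP1) and 5 lower (TNFAIP3, CYLD, TNIP1, OTULIN and TNIP2), where 18.9% and 21.8% of all genes were, 40.7% together.

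The order of levels within the set changed mostly through TNFAIP3. On the scale of CPM per kilobase of the deposited gene length, TNFAIP3 was the lowest of the 10 genes with vector, at 1.38 ± 0.164 (SD, n = 3). It was the highest with p65 WT, at 42.9 ± 0.878, and the sixth with p65 2CS, at 9.63 ± 0.677. RBCK1 led with vector (25.3 ± 0.555 CPM per kilobase) and with p65 2CS (26.4 ± 0.556), and was behind TNFAIP3 and TNIP1 with p65 WT (24.2 ± 0.289). TNIP1 went from rank 4 with vector (11.9 ± 0.516) to rank 2 with p65 WT (27.3 ± 1.30). CYLD stood at rank 9 with vector (3.45 ± 0.123), rank 7 with p65 WT (8.36 ± 0.590) and rank 9 with p65 2CS (4.34 ± 0.195). RNF31, the catalytic ligase, was at 4.02 to 4.44 CPM per kilobase on average in the 3 groups, below both accessory subunits in each.

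Some neighbours in that order overlapped between libraries and were not separated by their spread. They were TNIP2 and SHARPIN with vector, CYLD and TAX1BP1 as well as N4BP1 and RNF31 with p65 WT, and TNIP2 and SHARPIN, OTULIN, TNFAIP3 and TAX1BP1 in a row, and CYLD and RNF31 with p65 2CS. All other neighbours were separated.

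For the 3 genes that rose with both forms, the rise in CPM with p65 2CS was set beside that with p65 WT as a description. It was 19.8% of the p65 WT rise for TNFAIP3 (17.99% to 21.1% over the p65 2CS libraries), 27.1% for TNIP1 (24.6% to 30.6%) and 18.2% for CYLD (13.96% to 21.8%). The shares of TNFAIP3 and CYLD overlapped, although their rises with p65 WT were 209.9 and 63.7 CPM. These ranges vary the p65 2CS libraries alone, with the vector and p65 WT means held fixed. The likeness is also one of the CPM scale. The log2 folds with p65 2CS and p65 WT were 2.80 and 4.95 for TNFAIP3, but 0.33 and 1.28 for CYLD.

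The genes closest to TNFAIP3 in their pair of log2 folds against vector were taken from 13380 protein-coding genes at a mean of at least 1 CPM over the 9 libraries. The measure was the Euclidean distance between the pairs, both of which share the vector libraries. IL32, a cytokine gene, was nearest at a distance of 0.28, followed by the chemokine gene CXCL2 (0.30), PTGES, which encodes a prostaglandin E synthase (0.36), GCNT4 (0.57) and CXCL3 (0.65). IL32 had log2 folds of 4.67 and 2.82. With vector CXCL2, GCNT4 and CXCL3 averaged only 0.33, 0.24 and 0.57 CPM. They met the floor of 1 CPM through the p65 groups, and their folds and distances rest on few vector reads. Around CYLD the field was denser, with FOXP4 (0.04), GBX2 (0.04), ACP4 (0.04), PLPP4 (0.06) and CLIC5 (0.07). FOXP4, a transcription factor gene, had log2 folds of 1.25 and 0.31. CLIC5 was also low, at a mean of 0.70 CPM with vector and 0.93 CPM with p65 2CS.

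Other genes of the pathway were taken from 3 lists. In the TNF receptor complex and IKK list, 6 of 19 genes were higher and 3 lower with p65 WT, with a median log2 fold of 0.07. Over all genes tested 16.4% were higher and 12.5% lower, and the median was -0.02. BIRC3 and BIRC2, ubiquitin ligases that bind TRAF2, rose by 2.73 ± 0.15 and 0.76 ± 0.05, and CFLAR, which blocks caspase-8, rose by 0.96 ± 0.06. The 9 calls became 5 without p65 WT replicate 6, and 5 higher and 0 lower with DESeq2. With p65 2CS 8 were higher and 0 lower (median 0.07), where 12.1% and 11.4% of all genes were, led by BIRC3 (2.84-fold), CFLAR (1.76-fold) and BIRC2 (1.51-fold). Between the forms 3 were higher and 6 lower with p65 2CS (median 0.01), where 13.4% and 17.9% of all genes were, with BIRC3 at -1.23 ± 0.13, IKBKG at -0.41 ± 0.12 and TAB1 at 0.24 ± 0.05. With totals alone setting the scale, that split became 5 and 5. IKBKG encodes NEMO, the chain-reading subunit of the IKK complex, and has a near-identical copy, so its counts are uncertain. Its p65 WT libraries, at 15.6, 19.4 and 25.7 CPM, also overlapped those with p65 2CS, at 12.7, 17.6 and 15.0 CPM.

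Of 26 genes for further deubiquitinases and A20 partners 25 were tested, since TNIP3 had too few reads. With p65 WT 1 was higher, 6 were lower and 18 did not pass (median log2 fold -0.11), and over all genes 28.8% passed, 16.4% as higher and 12.5% as lower (median -0.02). The largest were USP48 at 0.40 ± 0.04, SPATA2L at -0.37 ± 0.06 and USP25 at -0.28 ± 0.06. The lower calls became 12 when library totals alone set the scale, and the 7 calls became 4 without p65 WT replicate 6. With p65 2CS 6 were higher, 2 were lower and 17 did not pass (median 0.06), against 12.1% higher and 11.4% lower over all genes, with ZRANB1 at 0.27 ± 0.07, SPATA2L at -0.24 ± 0.06 and USP48 at 0.22 ± 0.04. Between the forms 11 were higher with p65 2CS, 1 was lower and 13 did not pass (median 0.12), against 13.4% higher and 17.9% lower over all genes, led by USP25 (0.31 ± 0.06), USP15 (0.28 ± 0.05) and ZRANB1 (0.26 ± 0.07). SPATA2, which couples CYLD to the receptor complex, did not pass with p65 WT (0.16 ± 0.07, edgeR adjusted p = 0.0775) or p65 2CS (0.07 ± 0.07, edgeR adjusted p = 0.537).

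Of 13 ubiquitin genes and genes of enzymes that load ubiquitin, 2 were higher with p65 WT, 3 were lower and 8 did not pass (median log2 fold -0.07), where 16.4% of all genes were higher and 12.5% lower. The largest were UBB at 0.17 ± 0.03, UBE2D2 at -0.15 ± 0.03 and UBE2K at -0.13 ± 0.03. With p65 2CS 0 were higher, 5 were lower and 8 did not pass (median -0.08), against 12.1% higher and 11.4% lower over all genes, with RPS27A at -0.19 ± 0.02, UBE2K at -0.15 ± 0.03 and UBE2N, which helps build lysine-linked chains, at -0.14 ± 0.05. Those 5 calls became 3 without vector replicate 2 or 3 or p65 2CS replicate 8. Between the forms 1 was higher with p65 2CS, 5 were lower and 7 did not pass (median -0.04), against 13.4% higher and 17.9% lower over all genes, with UBB at -0.22 ± 0.03 and UBE2N at -0.18 ± 0.05. When library totals alone set the scale, these splits became 1 higher and 5 lower with p65 WT, 0 and 6 with p65 2CS, and 3 and 5 between the forms. Ubiquitin genes have many processed copies in the genome, so their counts are uncertain.

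**Figure D4:**
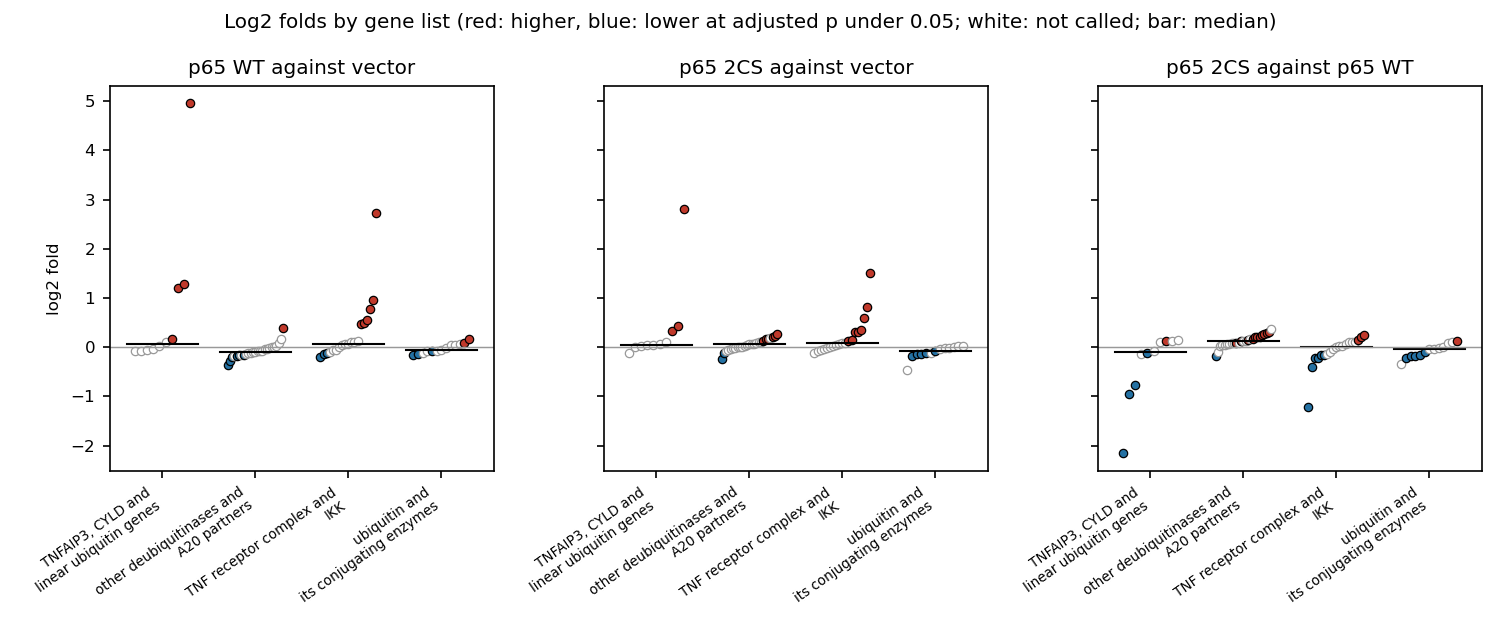
Log2 folds (y axis) of the 10 genes and of 3 other pathway lists in each comparison (panels); red and blue points passed the test as higher or lower, white points did not, and bars are list medians. TNFAIP3 at 4.95 and BIRC3 at 2.73 are the highest points with p65 WT, while the list medians lie between -0.11 and 0.12.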

How the data were processed

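Poly-A RNA was sequenced from 9 libraries in 3 groups of 3, taken from the sample titles. The authors deposited whole-number counts of reads for each gene, not normalized, in 1 table. The submitters' processing notes name HISAT2 2.0.5 as a tool. Which counter, strand setting and genome build were used is not given in the sources used here, and the labels' protocols allow for directional and non-directional libraries. All 58735 gene identifiers, positions and strands matched GENCODE 29 on GRCh38. The deposited gene length in bases served for CPM per kilobase.

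Tests used edgeR 4.0.16 (limma 3.58.1) under R 4.3.3: its expression filter, TMM scaling and a quasi-likelihood F test in 1 fit of all 9 libraries. CPM is per TMM-scaled total of the genes tested. P-values were adjusted by Benjamini-Hochberg across 18195 genes, with a threshold of 0.05, and the standard error is the one implied by the F test. Intervals at 95% are not adjusted. The analysis was tested on simulated counts. Counts of libraries in 1 group differed by more than sampling noise (chi-square over its degrees of freedom, 1.91 to 2.65), and each was kept as a sample. That spread does not show whether the libraries came from separate cultures. Alternatives were DESeq2 1.42.0, other scalings, no filter, fits of the groups compared only, RELA left out, a threshold of 0.01 and each library left out.

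Members, lists and motifs were chosen with earlier results of these data known. Named genes are all members, the 3 largest called log2 folds per other list and comparison, and the 5 genes nearest to TNFAIP3 and to CYLD; others named (SPATA2, overlapping genes) are for context. SPATA2 was added after its values were seen. A gene that this rule names is not reported here.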

Additional observations from a re-analysis of the deposited data

How the results depend on the processing

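No paired analysis was possible because the groups share no replicate numbers. Between the forms, 5 called members became 3 (0 higher, 3 lower) at an adjusted p under 0.01. When library totals alone set the scale, the split between the forms went from 1 higher and 4 lower to 4 higher and 3 lower, and that of p65 WT against vector from 4 higher and 0 lower to 4 and 2. With each library left out in turn, the members called numbered 4 in every case for p65 WT against vector, 3 to 4 for p65 2CS against vector and 4 to 7 between the forms. Of 450 values of single members over 15 settings, 433 kept their direction, or lay on the same side of the threshold without a call, 4 lost a call (all OTULIN between the forms), 13 gained one and 0 reversed with a call. The log2 folds of TNFAIP3 ranged from 4.86 to 5.01, from 2.71 to 2.86 and from -2.20 to -2.09. With libraries scaled by totals alone, RBCK1 (-0.10, edgeR adjusted p = 0.0304) and TAX1BP1 (-0.12, edgeR adjusted p = 0.0293) were called lower with p65 WT, and N4BP1 (0.16, edgeR adjusted p = 0.0327) and SHARPIN (0.18, edgeR adjusted p = 0.0213) higher with p65 2CS than with p65 WT. That scaling moved the median gene by -0.04 with p65 WT, and its calls over all genes were 2561 higher and 3642 lower, against 2976 and 2268. Between the forms they were 3098 and 2820, against 2431 and 3254. The cause was not tested. The alternatives for the other gene lists were added after seeing the data. RBCK1 between the forms was called under all 15 alternative settings with the threshold of 0.05, with adjusted p from 0.0016 to 0.0397.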

Other observations

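Outside the 10 members, tested genes whose RefSeq windows held the 10-letter form GGGACTTTCC numbered 29. With p65 WT 11 of them were higher (37.9%) and 2 lower, with a median log2 fold of 0.17. Among 11817 tested genes with a window but without that form 17.2% were higher and 14.1% lower, with a median of -0.02. With p65 2CS 8 of the 29 were higher (27.6%) and 0 lower, against 13.6% higher and 13% lower without the form. Between the forms 2 were higher and 8 lower (27.6%) with p65 2CS, against 15.8% higher and 19.1% lower without it. For the whole kappa B consensus, 23.4% of 2078 genes with a match were higher with p65 WT, against 15.9% of 9768 without one. The lower shares were 12.5% and 14.5%. With p65 2CS 16.8% and 13% were higher, and 12.6% and 13.1% lower. Between the forms 13.3% and 16.3% were higher with p65 2CS, and 24% and 18.1% lower. These counts are a description, the form having been picked from the members themselves, and base composition was not matched.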
